A study of Mus musculus with 24 samples.

Results

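Expression of 10 genes that run or mark the hair follicle was described in mouse skin with and without the human papillomavirus 16 E7 oncoprotein, before and after grafting. The genes were Shh, Wnt10b, Fgf5, Lgr5, Lef1, Msx2, Foxn1, Hoxc13, Cd34 and Krt79, chosen by name as regulators of the hair cycle or markers of follicle stem cells and the upper follicle, and all 10 were found among the 27180 genes counted. Bulk RNA sequencing covered 24 libraries in 8 groups of 3. The E7 mice (K14E7) express E7 behind the keratin 14 promoter, which is active in basal keratinocytes, and the CD1dKOxE7 donors carry K14E7 on a CD1d-/- background, so that they lack the molecule that presents lipids to natural killer T cells. Whole ear skin came from E7 mice and from C57BL/6 (C57) controls at 8 weeks of age. Grafts, by label of ear skin, were taken from CD1dKOxE7, E7 or C57 donors, placed on C57BL/6 recipients and collected at day 14 or day 28 after grafting. Donor skin alone carried the E7 or CD1d alleles, since all recipients were C57BL/6 mice. The labels do not give the age of the graft donors, nor do they say which libraries came from separate animals, so that p-values measure the spread between these libraries.

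Hair follicles grow in cycles of growth (anagen), regression (catagen) and rest (telogen). Wnt signals acting through beta-catenin and LEF1, together with Sonic hedgehog from the hair matrix, drive entry into and progress through anagen, whereas FGF5 ends it. Stem cells of the bulge and hair germ carry LGR5, and those of the mouse bulge also carry CD34. The matrix factors MSX2, FOXN1 and HOXC13 run the differentiation of the hair shaft, while KRT79 lines the hair canal above.

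Promoter sequence bore on the group because LEF1 and its TCF relatives bind DNA at a short element with the core CTTTG, which reads CAAAG on the other strand. RefSeq promoter windows of 250 bases before the gene start (GRCm38.p6) were at hand for 7 of the 10 genes, and the core was found in 2 of them, Lef1 itself and Fgf5. Across all 32851 windows of this length, 48.6% held it on either strand, which is the background for 2 of 7, and a match is a description of letters and not of a binding site. The longer CTTTGA (13.8% of all windows) was in none of the 7. Of 4 other motifs searched on both strands, CCAAT (33.8% of all windows) was in those of Msx2 and Foxn1. TATAAA (12.4%), the E2F element TTTCCCGC (0.895%) and the Gli element GACCACCCA (0.225%) were in none. The 4 windows printed are those of the genes with a core and of Cd34 and Krt79, which had none and which passed the test more often than the other 8 genes in comparisons of E7-carrying with C57 grafts. Gene starts here are RefSeq's and differ from the GENCODE starts given elsewhere for Lef1 and Cd34. Capitals mark the core, which begins at position -161 from the gene start in Lef1 and at -26 in Fgf5.
Lef1, chr3:131110047-131110296, plus strand: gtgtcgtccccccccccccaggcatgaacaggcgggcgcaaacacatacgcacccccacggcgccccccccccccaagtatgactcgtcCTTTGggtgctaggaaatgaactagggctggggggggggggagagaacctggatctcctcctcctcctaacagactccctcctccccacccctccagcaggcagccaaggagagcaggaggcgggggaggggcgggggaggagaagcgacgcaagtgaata
Fgf5, chr5:98253934-98254183, plus strand: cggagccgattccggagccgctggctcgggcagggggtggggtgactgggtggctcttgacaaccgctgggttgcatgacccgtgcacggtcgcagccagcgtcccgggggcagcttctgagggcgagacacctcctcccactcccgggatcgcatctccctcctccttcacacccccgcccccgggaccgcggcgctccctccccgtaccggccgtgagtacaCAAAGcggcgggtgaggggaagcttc
Cd34, chr1:194938571-194938820, plus strand: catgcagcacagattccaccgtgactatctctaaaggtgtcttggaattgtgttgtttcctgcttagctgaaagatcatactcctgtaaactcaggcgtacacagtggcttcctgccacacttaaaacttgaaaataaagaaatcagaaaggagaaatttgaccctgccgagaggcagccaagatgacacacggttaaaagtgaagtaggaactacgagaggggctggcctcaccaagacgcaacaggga
Krt79, chr15:101940325-101940574, minus strand: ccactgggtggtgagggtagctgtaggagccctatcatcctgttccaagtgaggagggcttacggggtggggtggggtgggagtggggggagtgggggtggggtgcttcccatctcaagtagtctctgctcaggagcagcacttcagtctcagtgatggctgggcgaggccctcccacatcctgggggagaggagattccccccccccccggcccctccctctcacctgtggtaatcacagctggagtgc

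Library totals ranged between 6550011 and 13814448 counts. Levels are CPM, counts relative to the TMM-scaled library total, given in the order of the replicates, and 3 counts in a library equalled 0.217 to 0.458 CPM before TMM scaling. The E7 transgene had at least 141 counts in each library of E7 or CD1dKOxE7 skin, against at most 2 in any C57 library. At day 14 the counts were 212 of 10617361, 198 of 11069475 and 163 of 7153135 in CD1dKOxE7 grafts. E7 grafts had 213 of 6726995, 370 of 9937396 and 336 of 8987068, a higher share in every library. At day 28 they were 405 of 9241245, 340 of 7753457 and 141 of 7414214 in CD1dKOxE7 grafts. E7 grafts then had 205 of 7784530, 242 of 6920288 and 217 of 7964020. The part of transgene level in CD1dKOxE7 differences was not tested. By the library names, ear and grafts came from separate flow cells, and the CD1dKOxE7 grafts had a lane of their own. A graft or CD1dKOxE7 difference and a sequencing difference therefore cannot be told apart. E7 and C57 libraries of the same tissue and day shared a lane. Replicate 2 of the E7 grafts at day 14 stood apart, being lowest of its group for 9 of the 10 genes, and replicate 3 of the CD1dKOxE7 grafts at day 28 was highest of its group for 9. Whether counting used strand is not stated, and counts of Lgr5, Shh, Lef1 and Cd34 may include reads of transcripts annotated on the opposite strand.

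Group means of Shh, Wnt10b, Fgf5, Lgr5, Lef1, Msx2, Foxn1 and Hoxc13 were highest in C57 grafts collected at day 14. Not all day 14 grafts stood above the other groups. That day Wnt10b averaged 9.34 CPM in E7 and 9.04 CPM in CD1dKOxE7 grafts, while C57 ear and C57 grafts at day 28 averaged 10.06 and 10.13 CPM. Ear skin held almost no Shh or Fgf5. In C57 grafts at day 14 Shh averaged 7.21 ± 6.28 CPM, Lef1 21.4 ± 7.25 CPM and Hoxc13 64.4 ± 15.1 CPM (SD, n = 3 each), against 0.0927 ± 0.103, 3.32 ± 0.645 and 5.14 ± 0.696 CPM in C57 ear skin. By day 28 Msx2 and Foxn1 had fallen in grafts of all 3 donors. E7 skin held less Cd34 than C57 skin in ear, at day 14 and at day 28, with log2 fold changes of -1.51 ± 0.08, -0.96 ± 0.21 and -0.67 ± 0.21 (± SE). Krt79 went the other way in grafts at day 28, at 976 ± 48.2 CPM in E7 and 483 ± 54.3 CPM in C57 grafts. In bulk skin fewer cells of a type and less RNA per cell cannot be told apart.

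**Figure D1:**
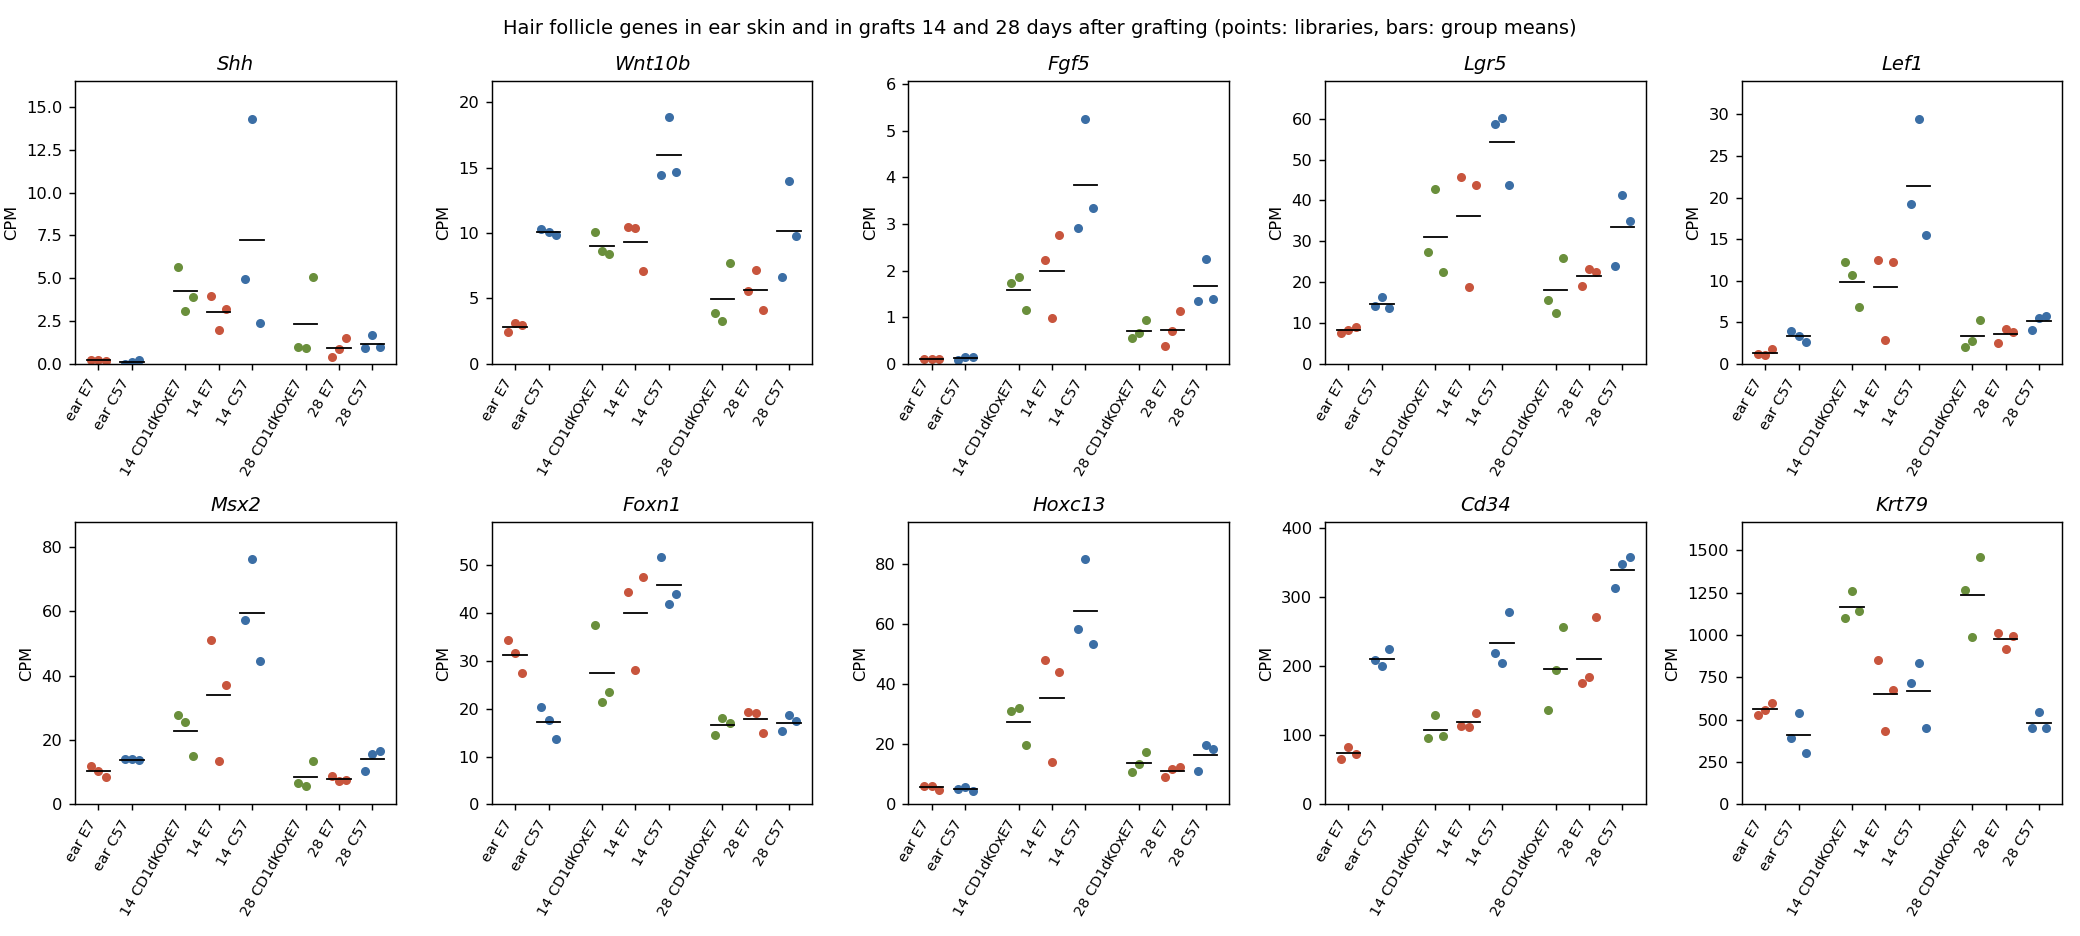
CPM of each of the 10 genes (linear axes from 0) in E7 and C57 ear skin and in CD1dKOxE7, E7 and C57 grafts at days 14 and 28. Points are libraries and bars group means of 3; the means of Shh, Lef1, Msx2, Hoxc13 and Fgf5 are highest in C57 grafts at day 14, Cd34 is highest in C57 grafts at day 28, and Krt79 is highest in CD1dKOxE7 grafts.

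Log2FC stands for the log2 fold change, given ± SE. A gene was called at an adjusted p below 0.05 in edgeR's quasi-likelihood test, over all genes tested in the comparison. A call is lost where an alternative takes that p to the threshold or above. In ear skin 8 of the 10 genes had enough counts to be tested, Shh and Fgf5 being too low, and in E7 against C57 ear Foxn1 rose while Lgr5, Wnt10b, Lef1, Msx2 and Cd34 fell. These 6 of 8 calls stood beside 65.3% of all 15720 genes tested called in that comparison (32.6% higher, 32.7% lower), so that a call by itself was the common outcome in ear. Of all 10267 calls in ear 5129 were higher in E7, against 3993 of 10214 with upper quartile scaling, and none of the 6 member calls changed direction with the scaling. E7 against C57 grafts at day 14 gave 2 calls of 10 (Lef1 and Cd34, both lower) beside 30.2% of all genes (15.8% higher, 14.4% lower). All 10 log2 fold changes were below 0, with a median of -0.83 against -0.04 over all genes. Without E7 replicate 2 those of Foxn1 (0.03) and Krt79 (0.22) were above 0. That of Krt79 was also above 0 without C57 replicate 1 (0.04) or 2 (0.18). At day 28 there were 2 calls (Krt79 higher, Cd34 lower) beside 35.4% of all genes (20.7% higher, 14.7% lower). Shares of members called in both graft comparisons were therefore below the share of all genes called. Leaving out single libraries gave 1 to 3 calls at either day. Counts of list genes in E7 against C57 skin, given below, stand beside these same shares of all genes.

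**Figure D2:**
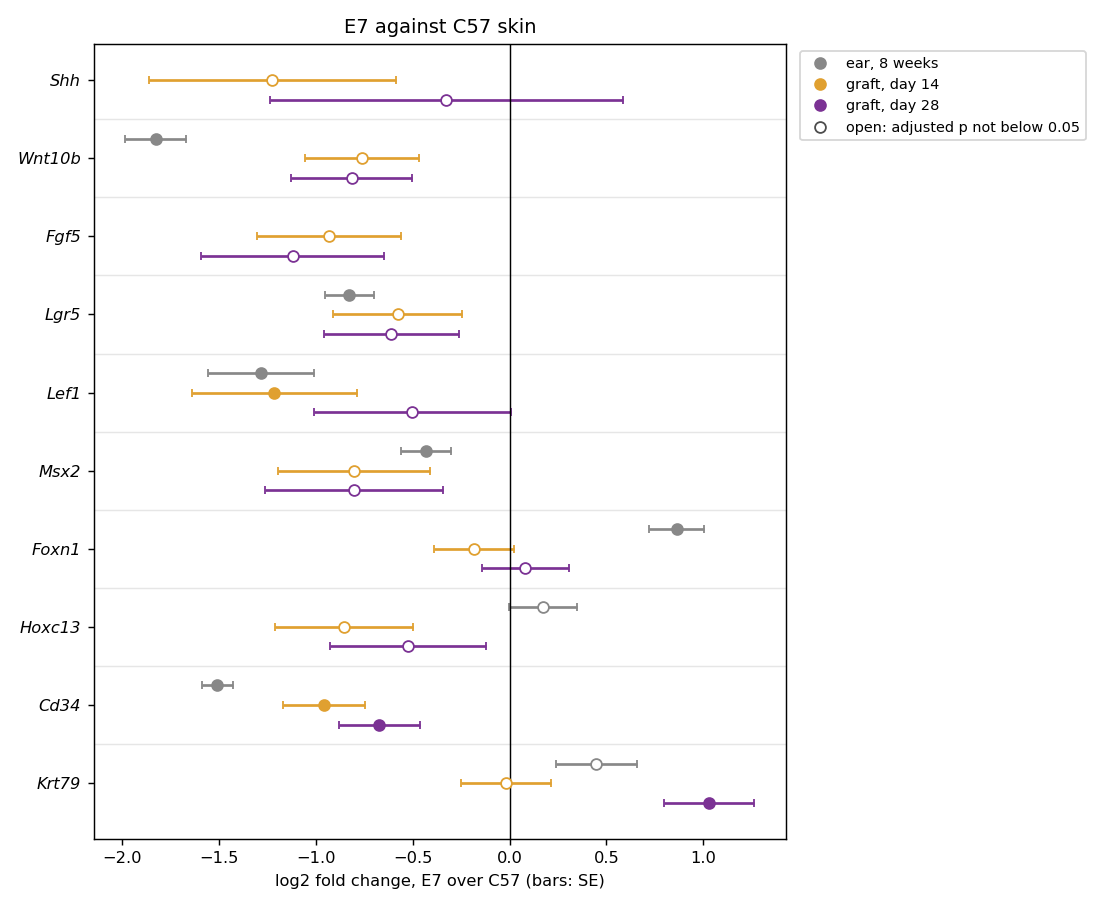
Log2 fold change of E7 over C57 skin with its SE for the 10 genes (rows) in ear at 8 weeks and in grafts at days 14 and 28. Filled points passed an adjusted p of 0.05 and open ones did not; Cd34 lies left of 0 with a filled point in all 3 tissues, Foxn1 has a filled point right of 0 in ear, and Shh and Fgf5 have no ear point because they were not tested there.

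Day 28 against day 14 was compared within each donor. C57 grafts gave 6 calls of 10, all lower (Shh, Fgf5, Lef1, Msx2, Foxn1 and Hoxc13), beside 22.6% of all genes called (8.4% higher, 14.2% lower). E7 grafts gave 4 lower (Fgf5, Msx2, Foxn1 and Hoxc13) and Cd34 higher, beside 17.2% of all genes (7.68% higher, 9.48% lower). CD1dKOxE7 grafts gave 3 lower (Lef1, Msx2 and Foxn1) and Cd34 higher, beside 22.6% (10.8% higher, 11.8% lower). The median log2 fold change of the 10 genes was -0.87 in CD1dKOxE7, -1.25 in E7 and -1.31 in C57 grafts, against 0.00, 0.01 and -0.03 over all genes. Leaving out single libraries gave 1 to 7 calls in CD1dKOxE7 and 2 to 6 in E7 grafts, the 7 being reached without CD1dKOxE7 replicate 3 of day 28. Fitted on the compared groups alone, edgeR made 0 calls of 9 members tested in CD1dKOxE7 and 3 of 9 in E7 grafts. Calls over all genes also dropped in that fit. They were 1308 of 15447 in CD1dKOxE7, against 3660 of 16189 in the main fit, and 2410 of 15292 in E7 grafts, against 2778.

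**Figure D3:**
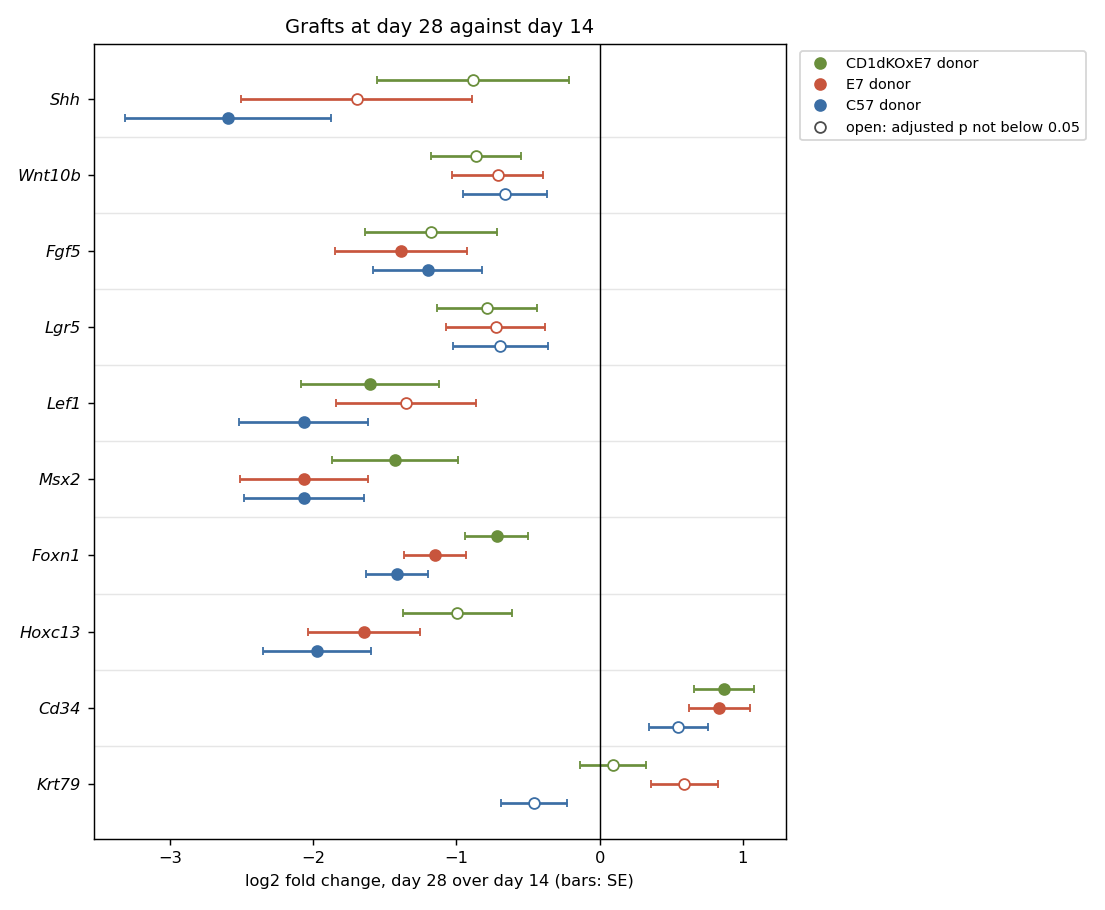
Log2 fold change of day 28 over day 14 with its SE for the 10 genes in CD1dKOxE7, E7 and C57 grafts. Filled points passed an adjusted p of 0.05; Msx2 and Foxn1 have filled points left of 0 for all 3 donors, whereas Cd34 lies right of 0 for all 3 and is filled for CD1dKOxE7 and E7.

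Grafts were also set against ear skin of the same genotype, a contrast that coincides with the flow cell. C57 grafts at day 14 gave 9 calls of 10, all higher and leaving out Cd34, beside 52.6% of all genes called (30.6% higher, 22% lower). At day 28 they gave 5, all higher (Lgr5, Shh, Hoxc13, Fgf5 and Cd34), beside 39.2% (21.3% higher, 18% lower). E7 grafts at day 14 gave 8, all higher and leaving out Foxn1 and Krt79, beside 43.2% (21.9% higher, 21.3% lower). At day 28 they gave 6 higher (Lgr5, Wnt10b, Lef1, Fgf5, Cd34 and Krt79) and Foxn1 lower, beside 48.1% (23.8% higher, 24.2% lower). The share of calls was above that of all genes at both days in C57 and in E7 skin. Shh and Fgf5 are counted in these shares. They were too low to be tested in ear alone and passed the count filter here only through the grafts. Their calls against ear follow in part from that filter.

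Shh encodes the hedgehog ligand that the hair matrix secretes during anagen (chr5:28456815-28467256, minus strand, GRCm38). Ear skin held almost none, at 0.192, 0.195 and 0.189 CPM in E7 and 0, 0.0751 and 0.203 CPM in C57 libraries, which was at most 3 counts in any of the 6. At day 14 Shh reached 5.68, 3.11 and 3.9 CPM in CD1dKOxE7, 3.97, 1.98 and 3.22 CPM in E7 and 4.93, 14.3 and 2.39 CPM in C57 grafts. By day 28 Shh stood at 0.98, 0.914 and 5.07 CPM in CD1dKOxE7, 0.373, 0.846 and 1.5 CPM in E7 and 0.895, 1.68 and 0.977 CPM in C57 grafts. A single C57 library was far above the rest at day 14, a single CD1dKOxE7 library was above the rest at day 28, and donors overlapped at both days. Every graft library was above every ear library in CPM. The lowest graft library, E7 replicate 1 of day 28, and the highest ear library, C57_8wks_287, each held 3 counts, so their gap reflects library size. In the fit across tissues Shh passed the count filter only through the grafts, and its rises against ear follow in part from that. In C57 skin Shh rose in grafts at day 14 against ear (log2FC 5.98 ± 0.88, adjusted p = 1.37e-05). This rested on 4 counts in C57 ear, and the log2FC was 7.06 without ear library C57_8wks_287 and 5.03 without graft replicate 2. At day 28 it fell against day 14 (log2FC -2.59 ± 0.72, adjusted p = 0.0174). The day 28 fall was lost without C57 replicate 2 of day 14 (log2 fold change -1.63, adjusted p = 0.117) and without replicate 1 or 3 of day 28 (adjusted p = 0.0714 and 0.0598), and when fitted on these groups alone (adjusted p = 0.0663). The comparison of C57 grafts at day 28 with ear (log2FC 3.38 ± 1.13, adjusted p = 0.0227) was lost without ear library C57_8wks_285 or C57_8wks_286 or graft replicate 2 (adjusted p = 0.067, 0.0608 and 0.0694). Without C57_8wks_287 its log2FC was 4.46. In E7 skin Shh rose at day 14 against ear (log2FC 3.87 ± 0.92, adjusted p = 0.0022), while day 28 against day 14 did not pass (log2FC -1.70 ± 0.81, adjusted p = 0.16).

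Of the 16 other hedgehog pathway genes listed, 15 were tested. In E7 against C57 ear none rose and 12 fell, with a median log2 fold change of -0.91. They included Gli1, the target gene that reads out the pathway (log2FC -1.27 ± 0.10, adjusted p = 1.08e-06), and Boc, a co-receptor (log2FC -1.20 ± 0.09, adjusted p = 7.25e-07). In E7 against C57 grafts 4 fell at day 14, Gli3 having the smallest adjusted p (log2FC -0.53 ± 0.10, adjusted p = 0.0017). At day 28 5 fell, among them Disp1, which releases the ligand from cells (log2FC -0.93 ± 0.16, adjusted p = 4.49e-04). Between days 2 rose and 2 fell of 15 in CD1dKOxE7 grafts, 1 fell in E7 grafts, and 1 rose and 2 fell in C57 grafts.

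Wnt10b encodes a Wnt ligand that promotes anagen (chr15:98770712-98778150, minus strand). Ear skin held 2.41, 3.12 and 2.94 CPM in E7 and 10.3, 10.1 and 9.82 CPM in C57 libraries. At day 14 Wnt10b stood at 10.1, 8.63 and 8.37 CPM in CD1dKOxE7, 10.5, 10.4 and 7.13 CPM in E7 and 14.4, 18.8 and 14.7 CPM in C57 grafts. By day 28 Wnt10b stood at 3.92, 3.27 and 7.74 CPM in CD1dKOxE7, 5.59, 7.19 and 4.13 CPM in E7 and 6.63, 14 and 9.77 CPM in C57 grafts. E7 ear libraries lay below all others, and every C57 graft at day 14 lay above every other library of the study. In ear Wnt10b fell in E7 skin (log2FC -1.83 ± 0.16, adjusted p = 1.95e-06), with little spread in either group. In grafts the E7 difference did not pass at day 14 (log2FC -0.76 ± 0.29, adjusted p = 0.0595), although the libraries did not overlap, nor at day 28 (log2FC -0.82 ± 0.31, adjusted p = 0.0536). CD1dKOxE7 grafts fell against C57 at day 14 (log2FC -0.81 ± 0.29, adjusted p = 0.0365) and at day 28 (log2FC -1.01 ± 0.32, adjusted p = 0.015). The day 14 call was lost on leaving out any 1 of the 6 libraries (adjusted p = 0.0547 to 0.122). The day 28 call was lost without C57 replicate 2 or CD1dKOxE7 replicate 1 or 2 (adjusted p = 0.088, 0.0685 and 0.0654), and when fitted on these groups alone (adjusted p = 0.0815). Against ear Wnt10b rose in E7 grafts at day 14 (log2FC 1.72 ± 0.30, adjusted p = 1.13e-04) and at day 28 (log2FC 0.99 ± 0.31, adjusted p = 0.013; adjusted p = 0.0743 without E7 replicate 2). In C57 skin the rise at day 14 (log2FC 0.66 ± 0.25, adjusted p = 0.0319) was lost on leaving out any 1 of the 6 libraries (adjusted p = 0.0615 to 0.128), and with upper quartile scaling or no low-count filter (adjusted p = 0.0595 and 0.0665). The 15 other Wnt ligand and secretion genes tested in ear split, 6 rising and 8 falling in E7 skin. Wnt3 rose (log2FC 0.91 ± 0.09, adjusted p = 5.09e-06) and Wnt2 fell (log2FC -2.21 ± 0.28, adjusted p = 3.81e-05). In E7 grafts 2 rose and 4 fell at day 14 and 2 rose and 3 fell at day 28. Wnt10a rose at both days (log2FC 0.51 ± 0.14, adjusted p = 0.0125 at day 14 and log2FC 0.81 ± 0.14, adjusted p = 4.53e-04 at day 28).

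Fgf5 encodes the growth factor that brings anagen to an end, and its loss gives long-haired mice (chr5:98254184-98277030, plus strand). Ear skin held 0.0962, 0.0975 and 0.0947 CPM in E7 and 0.0818, 0.15 and 0.135 CPM in C57 libraries, which was 1 count in each E7 and 1 or 2 counts in each C57 library. At day 14 Fgf5 stood at 1.73, 1.87 and 1.16 CPM in CD1dKOxE7, 2.22, 0.987 and 2.76 CPM in E7 and 2.91, 5.26 and 3.34 CPM in C57 grafts. By day 28 Fgf5 stood at 0.544, 0.653 and 0.934 CPM in CD1dKOxE7, 0.373, 0.705 and 1.13 CPM in E7 and 1.34, 2.24 and 1.4 CPM in C57 grafts. All graft libraries lay above all ear libraries, and C57 grafts lay above E7 grafts at both days without overlap. The lowest graft library, E7 replicate 1 of day 28, held 3 counts. The E7 difference did not pass at day 14 (log2FC -0.93 ± 0.37, adjusted p = 0.0678) or day 28 (log2FC -1.12 ± 0.47, adjusted p = 0.0752). CD1dKOxE7 grafts fell against C57 at day 14 (log2FC -1.22 ± 0.37, adjusted p = 0.0163) and at day 28 (log2FC -1.20 ± 0.47, adjusted p = 0.0451). The day 14 call was lost without C57 replicate 2 or CD1dKOxE7 replicate 3 (adjusted p = 0.0851 and 0.0637). The day 28 call was lost without any 1 of the C57 libraries or CD1dKOxE7 replicate 1 or 2 (adjusted p = 0.0512 to 0.154), and with no low-count filter, DESeq2 or the replicate block (adjusted p = 0.0518 to 0.0605). Fgf5 fell at day 28 against day 14 in E7 (log2FC -1.39 ± 0.46, adjusted p = 0.0495) and in C57 grafts (log2FC -1.20 ± 0.38, adjusted p = 0.0317). The E7 call was lost without replicate 1 or 3 of day 14 or 1 or 2 of day 28 (adjusted p = 0.122 to 0.179). It was also lost with upper quartile scaling, no low-count filter, DESeq2 and the replicate block (adjusted p = 0.0525 to 0.0661). The C57 call was lost without replicate 2 of day 14 or 1 or 3 of day 28 (adjusted p = 0.0993 to 0.144). In the fit across tissues Fgf5 passed the count filter only through the grafts, and its rises against ear follow in part from that. Against ear Fgf5 rose in E7 grafts at day 14 (adjusted p = 8.86e-06) and day 28 (adjusted p = 0.0024), with no fold given because E7 ear held 3 counts in all. In C57 grafts it rose at day 14 (log2FC 4.80 ± 0.47, adjusted p = 8.86e-08) and day 28 (log2FC 3.58 ± 0.52, adjusted p = 3.05e-05), against 5 counts in C57 ear. Of the 11 other FGF genes tested, 2 rose and 8 fell in E7 ear, 1 rose and 3 fell in E7 grafts at each day. Fgfbp1, which carries FGFs out of the matrix, rose in all 3 (log2FC 1.20 ± 0.10, adjusted p = 4.52e-06 in ear, log2FC 1.19 ± 0.27, adjusted p = 0.00479 at day 14 and log2FC 1.62 ± 0.27, adjusted p = 4.83e-04 at day 28).

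Lgr5 encodes the R-spondin receptor of actively cycling follicle stem cells (chr10:115450311-115587780, minus strand). Ear skin held 7.51, 8.19 and 9.09 CPM in E7 and 14.1, 16.3 and 13.7 CPM in C57 libraries. At day 14 Lgr5 stood at 27.5, 42.9 and 22.5 CPM in CD1dKOxE7, 45.7, 18.9 and 43.9 CPM in E7 and 58.8, 60.3 and 43.7 CPM in C57 grafts. By day 28 Lgr5 stood at 15.6, 12.5 and 25.9 CPM in CD1dKOxE7, 19.1, 23.1 and 22.4 CPM in E7 and 24, 41.4 and 35 CPM in C57 grafts. E7 ear libraries were the lowest of the study, C57 ear came next by group mean, and at day 28 E7 libraries lay just below C57 libraries while CD1dKOxE7 libraries overlapped both. In ear Lgr5 fell in E7 skin (log2FC -0.83 ± 0.13, adjusted p = 1.6e-04). The E7 difference in grafts was a log2FC of -0.58 ± 0.33 (adjusted p = 0.202) at day 14 and a log2FC of -0.61 ± 0.35 (adjusted p = 0.183) at day 28. Against ear Lgr5 rose in E7 grafts at day 14 (log2FC 2.12 ± 0.33, adjusted p = 5.28e-05) and day 28 (log2FC 1.38 ± 0.34, adjusted p = 0.00249). It also rose in C57 grafts at day 14 (log2FC 1.88 ± 0.31, adjusted p = 5.16e-05) and day 28 (log2FC 1.18 ± 0.31, adjusted p = 0.0056). The fall of CD1dKOxE7 against C57 grafts at day 28 (log2FC -0.89 ± 0.35, adjusted p = 0.0485) was lost without C57 replicate 2 or 3 or CD1dKOxE7 replicate 1 or 2 (adjusted p = 0.103 to 0.158). No low-count filter, a filter of 1 CPM in 3 libraries, the replicate block and a fit of these groups alone lost it too (adjusted p = 0.0504 to 0.0727). Lgr5 did not pass between days in any donor, with log2 fold changes of -0.79 ± 0.35 in CD1dKOxE7, -0.73 ± 0.35 in E7 and -0.69 ± 0.33 in C57 grafts. Of the 23 other Wnt receptor, R-spondin and nuclear factor genes tested in ear, 3 rose and 16 fell in E7 skin. Those that fell included the paralogs Lgr4 (log2FC -0.86 ± 0.07, adjusted p = 1.14e-06) and Lgr6 (log2FC -1.21 ± 0.10, adjusted p = 1.3e-06) and the receptor Fzd4 (log2FC -1.65 ± 0.11, adjusted p = 3.29e-07). In E7 grafts 1 rose and 5 fell of 24 at day 14 and 6 fell at day 28. Rspo3, a ligand of the LGR receptors, had the smallest adjusted p at day 28 (log2FC -1.47 ± 0.22, adjusted p = 1.51e-04).

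Lef1 encodes the DNA-binding partner of beta-catenin in the hair matrix, and T cells express it too (chr3:131110471-131224356, plus strand). Ear skin held 1.16, 1.07 and 1.8 CPM in E7 and 3.93, 3.38 and 2.64 CPM in C57 libraries. At day 14 Lef1 stood at 12.2, 10.7 and 6.79 CPM in CD1dKOxE7, 12.5, 2.85 and 12.3 CPM in E7 and 19.2, 29.5 and 15.5 CPM in C57 grafts. By day 28 Lef1 stood at 1.96, 2.74 and 5.21 CPM in CD1dKOxE7, 2.48, 4.23 and 3.88 CPM in E7 and 4.12, 5.46 and 5.72 CPM in C57 grafts. C57 grafts at day 14 lay above every other library, and E7 replicate 2 of that day held less than any other day 14 graft. In E7 against C57 skin Lef1 fell in ear (log2FC -1.28 ± 0.27, adjusted p = 0.00164) and in grafts at day 14 (log2FC -1.21 ± 0.43, adjusted p = 0.044). It did not pass at day 28 (log2FC -0.50 ± 0.51, adjusted p = 0.465). The day 14 call was lost without E7 replicate 2 (log2 fold change -0.75, adjusted p = 0.12), without C57 replicate 1, 2 or 3 (adjusted p = 0.0683, 0.162 and 0.05002), with no low-count filter (0.0599), with the replicate block (0.0631) and when fitted on these groups alone (0.153). Lef1 fell at day 28 against day 14 in CD1dKOxE7 (log2FC -1.60 ± 0.48, adjusted p = 0.027) and in C57 grafts (log2FC -2.07 ± 0.45, adjusted p = 0.0045). The difference was a log2FC of -1.36 ± 0.49 (adjusted p = 0.0682) in E7 grafts. The CD1dKOxE7 call was lost without replicate 1 or 2 of either day (adjusted p = 0.0612 to 0.123), and when fitted on these groups alone (adjusted p = 0.0507). The summed level of 15 T cell genes, which also changed between these groups, was 571, 579.7 and 665 CPM in CD1dKOxE7, 116, 134 and 126 CPM in E7 and 99.5, 98.5 and 109.6 CPM in C57 grafts at day 14. Their part in the Lef1 values was not tested. Against ear Lef1 rose in E7 grafts at day 14 (log2FC 2.74 ± 0.49, adjusted p = 1.74e-04) and day 28 (log2FC 1.38 ± 0.54, adjusted p = 0.0418) and in C57 grafts at day 14 (log2FC 2.69 ± 0.41, adjusted p = 2.06e-05). The E7 call at day 28 was lost without ear library E7_8wks_288 or E7_8wks_289 or graft replicate 2 or 3 (adjusted p = 0.101 to 0.115), and with no low-count filter (adjusted p = 0.0559).

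None of the 10 genes is among the 23 listed Wnt targets and inhibitors, of which 21 were tested. In E7 against C57 ear 1 rose and 17 fell (median log2 fold change -1.32). Those that fell included Axin2, the general readout of the pathway (log2FC -0.95 ± 0.08, adjusted p = 2.3e-06), and Ccnd1, a cell cycle cyclin (log2FC -1.49 ± 0.07, adjusted p = 1.77e-08). In E7 grafts 9 fell and none rose at day 14 and again at day 28. Nkd1, a feedback inhibitor of Wnt signalling, fell at both (log2FC -0.66 ± 0.15, adjusted p = 0.00483 at day 14 and log2FC -0.98 ± 0.15, adjusted p = 2.06e-04 at day 28). Of 18 dermal papilla genes, which mark the signalling mesenchyme at the follicle base, none rose and 16 fell in E7 ear, 3 fell at day 14 and 6 at day 28. Of 15 dermal fibroblast genes, 14 fell in E7 ear, 12 at day 14 and 8 at day 28, with 1 rising each time.

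Msx2 encodes a homeobox factor of the hair matrix (chr13:53466884-53473074, minus strand). Ear skin held 11.9, 10.3 and 8.62 CPM in E7 and 14, 14 and 13.7 CPM in C57 libraries. At day 14 Msx2 stood at 27.8, 25.7 and 15 CPM in CD1dKOxE7, 50.9, 13.6 and 37.2 CPM in E7 and 57.3, 76.3 and 44.4 CPM in C57 grafts. By day 28 Msx2 stood at 6.53, 5.75 and 13.4 CPM in CD1dKOxE7, 8.82, 7.33 and 7.62 CPM in E7 and 10.3, 15.8 and 16.5 CPM in C57 grafts. Within each donor every day 14 library was above every day 28 library, and the E7 and C57 libraries overlapped at day 14 through E7 replicate 1. Msx2 fell at day 28 against day 14 in CD1dKOxE7 (log2FC -1.43 ± 0.44, adjusted p = 0.0311), in E7 (log2FC -2.07 ± 0.44, adjusted p = 0.00781) and in C57 grafts (log2FC -2.06 ± 0.42, adjusted p = 0.0031). The CD1dKOxE7 call was lost without replicate 1 or 2 of either day (adjusted p = 0.0764 to 0.134), and with no low-count filter (adjusted p = 0.05005) or these groups alone (adjusted p = 0.0631). Fitted on its groups alone, the E7 call was lost (adjusted p = 0.0534). In ear Msx2 fell in E7 skin by a small amount (log2FC -0.43 ± 0.13, adjusted p = 0.0115), a call that was lost in the fit of all 24 libraries (adjusted p = 0.338). In E7 grafts the difference was a log2FC of -0.80 ± 0.39 (adjusted p = 0.135) at day 14 and a log2FC of -0.80 ± 0.46 (adjusted p = 0.185) at day 28. CD1dKOxE7 grafts fell against C57 at day 14 (log2FC -1.36 ± 0.40, adjusted p = 0.0151), lost without C57 replicate 2 or CD1dKOxE7 replicate 3 (adjusted p = 0.0592 and 0.0649). Against ear Msx2 rose in day 14 grafts in E7 (log2FC 1.70 ± 0.38, adjusted p = 0.00135) and in C57 skin (log2FC 2.09 ± 0.36, adjusted p = 9.97e-05). Day 28 grafts did not pass in E7 (log2FC -0.37 ± 0.41, adjusted p = 0.476) or in C57 skin (log2FC 0.01 ± 0.38, adjusted p = 0.987).

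Foxn1, the gene mutated in nude mice, drives differentiation of hair cortex cells and is also made by epidermal keratinocytes that leave the basal layer (chr11:78357577-78386558, minus strand). Ear skin held 34.4, 31.5 and 27.4 CPM in E7 and 20.4, 17.6 and 13.6 CPM in C57 libraries. At day 14 Foxn1 stood at 37.5, 21.4 and 23.4 CPM in CD1dKOxE7, 44.3, 28.1 and 47.5 CPM in E7 and 51.7, 41.8 and 43.8 CPM in C57 grafts. By day 28 Foxn1 stood at 14.6, 18 and 17.1 CPM in CD1dKOxE7, 19.4, 19.2 and 14.9 CPM in E7 and 15.2, 18.8 and 17.3 CPM in C57 grafts. The E7 ear libraries all lay above the C57 ear libraries, while in grafts E7 and C57 overlapped at both days. In ear Foxn1 rose in E7 skin (log2FC 0.86 ± 0.14, adjusted p = 4.15e-04), the one gene of the 8 tested there to do so. In grafts the E7 difference was a log2FC of -0.19 ± 0.21 (adjusted p = 0.521) at day 14 and a log2FC of 0.08 ± 0.22 (adjusted p = 0.805) at day 28. The difference between the E7 effect in day 14 grafts and in ear passed (difference in log2FC -1.06 ± 0.29, adjusted p = 0.0198). It was lost without ear library C57_8wks_287 or E7_8wks_288, C57 replicate 1 or E7 replicate 2 of day 14 (adjusted p = 0.0567 to 0.0691). The summed level of 10 suprabasal keratinocyte genes, of which 9 rose in E7 ear, was 49470, 46360 and 47020 CPM in E7 and 22720, 22520 and 19340 CPM in C57 ear. Their part in the Foxn1 values was not tested. Foxn1 fell at day 28 against day 14 in CD1dKOxE7 (log2FC -0.72 ± 0.22, adjusted p = 0.0275), in E7 (log2FC -1.15 ± 0.22, adjusted p = 0.00357) and in C57 grafts (log2FC -1.41 ± 0.22, adjusted p = 4.67e-04). The CD1dKOxE7 call was lost without replicate 1 of day 14 or replicate 1 or 2 of day 28 (adjusted p = 0.0589 to 0.163), and when fitted on these groups alone (adjusted p = 0.102). CD1dKOxE7 grafts fell against C57 at day 14 (log2FC -0.73 ± 0.21, adjusted p = 0.0117), lost without C57 replicate 1 or CD1dKOxE7 replicate 2 or 3 (adjusted p = 0.0512, 0.0552 and 0.0539). Against ear Foxn1 fell in E7 grafts at day 28 (log2FC -0.80 ± 0.21, adjusted p = 0.00415) and rose in C57 grafts at day 14 (log2FC 1.42 ± 0.21, adjusted p = 1.18e-05).

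Hoxc13 encodes the homeobox factor that switches on hair keratin genes (chr15:102921103-102928814, plus strand). Ear skin held 6.16, 6.24 and 4.93 CPM in E7 and 5.23, 5.78 and 4.4 CPM in C57 libraries. At day 14 Hoxc13 stood at 31.1, 32 and 19.6 CPM in CD1dKOxE7, 48.1, 14.3 and 44.1 CPM in E7 and 58.4, 81.7 and 53.2 CPM in C57 grafts. By day 28 Hoxc13 stood at 10.7, 13.6 and 17.5 CPM in CD1dKOxE7, 9.19, 11.8 and 12.5 CPM in E7 and 11.2, 19.9 and 18.3 CPM in C57 grafts. All graft libraries exceeded all ear libraries, and C57 grafts at day 14 exceeded every other library. Against ear Hoxc13 rose in E7 grafts at day 14 (log2FC 2.61 ± 0.37, adjusted p = 1.88e-05). It rose too in C57 grafts at day 14 (log2FC 3.65 ± 0.36, adjusted p = 2.15e-07) and day 28 (log2FC 1.66 ± 0.37, adjusted p = 0.00177). E7 grafts at day 28 did not pass against ear (log2FC 0.95 ± 0.39, adjusted p = 0.0507). Hoxc13 fell at day 28 against day 14 in E7 (log2FC -1.64 ± 0.39, adjusted p = 0.0125) and in C57 grafts (log2FC -1.97 ± 0.38, adjusted p = 0.00213). The difference was a log2FC of -0.99 ± 0.38 (adjusted p = 0.0762) in CD1dKOxE7 grafts. The E7 call was lost without replicate 1 of either day (adjusted p = 0.0573 and 0.0554), and when fitted on these groups alone (adjusted p = 0.0836). The E7 difference was a log2FC of 0.17 ± 0.17 (adjusted p = 0.401) in ear, a log2FC of -0.85 ± 0.36 (adjusted p = 0.0825) at day 14 and a log2FC of -0.52 ± 0.40 (adjusted p = 0.327) at day 28. CD1dKOxE7 grafts fell against C57 at day 14 (log2FC -1.21 ± 0.36, adjusted p = 0.0157), lost without C57 replicate 2 or CD1dKOxE7 replicate 3 (adjusted p = 0.0633 and 0.0683).

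Other gene groups moved beside the transcription factors. A list of 16 hair shaft genes, 14 hair keratins with the desmosomal cadherin Dsg4 and the calcium-binding S100a3, summed to 2468, 2066 and 668 CPM in CD1dKOxE7, 3330, 808 and 3260 CPM in E7 and 5016, 4704 and 3452 CPM in C57 grafts at day 14. At day 28 the sums were 282, 135 and 206 CPM in CD1dKOxE7, 136, 170.3 and 171 CPM in E7 and 250.4, 533 and 609 CPM in C57 grafts, and in ear 16.5, 22.9 and 27.1 CPM in E7 and 13.7, 11.1 and 9.48 CPM in C57 skin. Every day 14 graft had a higher sum than every day 28 graft, and ear held least. Day 28 against day 14, 15 of 16 fell in CD1dKOxE7, and all 16 in E7 and in C57 grafts. Krt81 was one of them (log2FC -3.52 ± 0.61, adjusted p = 0.00141 in CD1dKOxE7, log2FC -4.27 ± 0.63, adjusted p = 0.00144 in E7 and log2FC -3.58 ± 0.60, adjusted p = 0.00103 in C57 grafts). Between E7 and C57 grafts none of the 16 passed at day 14 and 6 fell at day 28. Of 12 inner root sheath genes, 12 fell in CD1dKOxE7, 12 in E7 and 11 in C57 grafts. Of 13 other hair matrix and shaft transcription factors, 1 fell in CD1dKOxE7 grafts with 1 rising, 7 fell in E7 grafts with 1 rising, and 9 fell in C57 grafts. Dlx3, a matrix homeobox factor, fell in both (log2FC -1.77 ± 0.27, adjusted p = 0.00143 in E7 and log2FC -1.84 ± 0.26, adjusted p = 3.5e-04 in C57 grafts). The 2 libraries with the lowest hair shaft sums of day 14, E7 replicate 2 and CD1dKOxE7 replicate 3, were also the lowest of their groups for Lgr5, Lef1, Msx2, Hoxc13 and Fgf5.

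Hoxc13 also belongs to the Hox family, whose genes mark positions along the body axis, those of the trunk and posterior groups being little used in skin of the head. In ear 22 other Hox genes, from Hoxc4 to Hoxd13, summed to 13.3, 14.6 and 15.1 CPM in E7 and 20.7, 19.5 and 23.2 CPM in C57 skin. In grafts they summed to 61.4, 51.9 and 52.1 CPM in CD1dKOxE7, 54.9, 32.7 and 37.6 CPM in E7 and 66.8, 91 and 50.7 CPM in C57 libraries at day 14. At day 28 the sums were 28, 27.6 and 81.7 CPM in CD1dKOxE7, 64.3, 79.2 and 55.3 CPM in E7 and 76.5, 102 and 63.1 CPM in C57 libraries. Every graft library lay above every ear library, and the labels call the tissue of both ear skin. In C57 grafts at day 14 against ear, 12 of 15 rose and none fell, Hoxc9 having the smallest adjusted p (3.08e-07). In E7 grafts 11 of 15 rose at day 14 and 13 at day 28. None of the 15 fell at day 28 against day 14 in E7 or C57 grafts. In CD1dKOxE7 grafts the day 28 sums lay on both sides of the day 14 sums, with 28 and 27.6 CPM below and 81.7 CPM above. Their part in the Hoxc13 difference between graft and ear was not tested. The fold of several of these genes rests on near-absence from ear, where 12 of the 23 listed genes had no count in any E7 library and 13 had none in any C57 library.

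**Figure D4:**
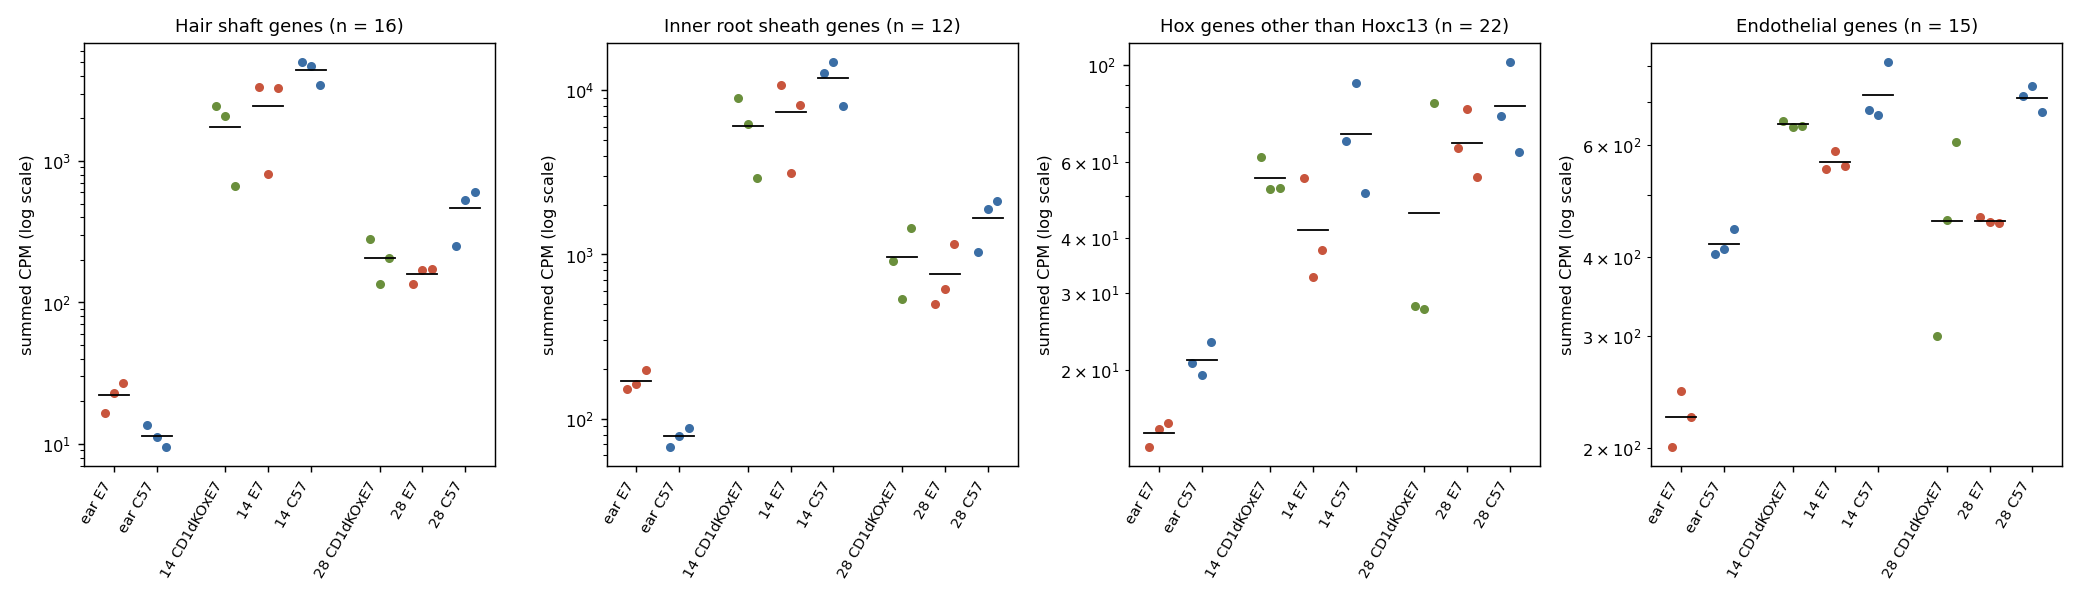
Summed CPM (log axes) of hair shaft genes, inner root sheath genes, Hox genes other than Hoxc13 and endothelial genes in each library, by tissue, day and donor, with bars at group means. Hair shaft and root sheath sums are highest at day 14, Hox sums are above ear in all grafts, and endothelial sums are lower in E7 than in C57 skin.

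Cd34 encodes a surface sialomucin that marks bulge stem cells in mouse follicles, and that blood vessels, dermal fibroblasts and mast cells carry too (chr1:194938819-194961279, plus strand). Ear skin held 66.5, 82.4 and 73.4 CPM in E7 and 208, 201 and 225 CPM in C57 libraries. At day 14 Cd34 stood at 95.6, 129 and 98.8 CPM in CD1dKOxE7, 113, 112 and 133 CPM in E7 and 219, 204 and 279 CPM in C57 grafts. By day 28 Cd34 stood at 136, 195 and 257 CPM in CD1dKOxE7, 176, 185 and 271 CPM in E7 and 314, 348 and 357 CPM in C57 grafts. In each tissue and at each day all E7 libraries lay below all C57 libraries, and the same held for CD1dKOxE7 against C57 grafts. In E7 against C57 skin Cd34 fell in ear (log2FC -1.51 ± 0.08, adjusted p = 6.46e-08), at day 14 (log2FC -0.96 ± 0.21, adjusted p = 0.00412) and at day 28 (log2FC -0.67 ± 0.21, adjusted p = 0.0215). The day 28 call was lost without C57 replicate 2 or 3 or E7 replicate 1 or 2 (adjusted p = 0.0531 to 0.0868). Against C57, CD1dKOxE7 grafts fell at day 14 (log2FC -1.11 ± 0.21, adjusted p = 8.28e-04) and at day 28 (log2FC -0.79 ± 0.21, adjusted p = 0.00615). Cd34 rose at day 28 against day 14 in CD1dKOxE7 (log2FC 0.87 ± 0.21, adjusted p = 0.00882) and in E7 grafts (log2FC 0.84 ± 0.21, adjusted p = 0.0159). The difference was a log2FC of 0.55 ± 0.21 (adjusted p = 0.0719) in C57 grafts. The E7 call was lost without replicate 1 or 2 of day 14 or 3 of day 28 (adjusted p = 0.0645, 0.0583 and 0.0629), and the CD1dKOxE7 call when fitted on its groups alone (adjusted p = 0.0686). Against ear Cd34 rose in E7 grafts at day 14 (log2FC 0.68 ± 0.20, adjusted p = 0.00861) and day 28 (log2FC 1.51 ± 0.20, adjusted p = 9.53e-06) and in C57 grafts at day 28 (log2FC 0.69 ± 0.19, adjusted p = 0.00825).

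Markers of the other cell types that carry Cd34 were lower beside it in some comparisons and not in others. The summed level of 15 endothelial genes was 200.3, 245 and 224 CPM in E7 and 404, 411 and 442 CPM in C57 ear. At day 14 it was 550.1, 587 and 556 CPM in E7 and 680, 669 and 811 CPM in C57 grafts. At day 28 it was 461, 453 and 452 CPM in E7 and 717, 744 and 675 CPM in C57 grafts. All 15 fell in E7 ear, 2 fell at day 14, beside 14.4% of all genes, and 12 at day 28, and none rose. The 15 fibroblast genes summed to 4637, 6971 and 5456 CPM in E7 and 14190, 14390 and 15020 CPM in C57 ear. In grafts the mean of these sums was 22550 CPM in E7 and 41020 CPM in C57 skin at day 14, and 19030 CPM in E7 and 36770 CPM in C57 skin at day 28. The summed level of 12 mast cell genes averaged 186.7 CPM in E7 and 409.2 CPM in C57 ear, where 9 fell and 1 rose. In grafts this sum averaged 214.5 CPM in E7 and 204.6 CPM in C57 skin at day 14, with none called, and 251.7 CPM in E7 and 343.1 CPM in C57 skin at day 28, where 1 fell. At day 28 against day 14, where Cd34 rose in CD1dKOxE7 and in E7 grafts, no endothelial gene rose in either, 7 fell in CD1dKOxE7 and 2 in E7 grafts. Of the fibroblast genes 4 rose and 1 fell in CD1dKOxE7 and 5 rose in E7 grafts, while their mean sums were lower at day 28 (13920 CPM against 15200 CPM in CD1dKOxE7 and 19030 CPM against 22550 CPM in E7 grafts). Of the mast cell genes 4 rose and 1 fell in CD1dKOxE7 grafts, and none was called in E7 grafts. Of 19 other bulge and follicle stem cell genes, 2 rose and 10 fell in E7 ear, beside 65.3% of all genes called there. Among those that fell were the bulge keratin Krt15 (log2FC -2.15 ± 0.11, adjusted p = 4.83e-08) and the stem cell factor Sox9 (log2FC -1.04 ± 0.07, adjusted p = 2.12e-07). In E7 grafts 1 rose and 2 fell at day 14 and 2 rose and 2 fell at day 28, beside 30.2% and 35.4% of all genes called. Krt15 fell at day 28 (log2FC -0.87 ± 0.25, adjusted p = 0.0149) and Hopx rose at both days (log2FC 0.47 ± 0.09, adjusted p = 0.00152 at day 14 and log2FC 0.73 ± 0.09, adjusted p = 2.69e-05 at day 28). Of 14 adipocyte genes 12 fell in E7 ear with 1 rising, and none passed in E7 grafts. The part of vessels, fibroblasts and mast cells in the Cd34 values was not tested.

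Krt79 encodes a keratin of the hair canal and infundibulum (chr15:101929332-101940324, minus strand). Ear skin held 527, 556 and 601 CPM in E7 and 395, 540.2 and 302 CPM in C57 libraries. At day 14 Krt79 stood at 1100, 1262 and 1143 CPM in CD1dKOxE7, 855, 431 and 677 CPM in E7 and 718, 836 and 450.3 CPM in C57 grafts. By day 28 Krt79 stood at 1265, 989.5 and 1460 CPM in CD1dKOxE7, 1010, 921 and 996 CPM in E7 and 453, 546 and 450.4 CPM in C57 grafts. CD1dKOxE7 libraries at day 14 lay above all E7 and C57 libraries of that day, and at day 28 both CD1dKOxE7 and E7 grafts lay above C57 grafts. Krt79 rose in E7 against C57 grafts at day 28 (log2FC 1.03 ± 0.23, adjusted p = 0.00357). At day 14 (log2FC -0.02 ± 0.23, adjusted p = 0.962) and in ear (log2FC 0.45 ± 0.21, adjusted p = 0.107) it did not pass. The difference of the E7 effect between day 28 and day 14 did not pass (difference in log2FC 1.05 ± 0.33, adjusted p = 0.27). CD1dKOxE7 grafts rose against E7 at day 14 (log2FC 0.83 ± 0.23, adjusted p = 0.014), lost without E7 replicate 2 (log2 fold change 0.59, adjusted p = 0.0613). Against C57, CD1dKOxE7 grafts rose at day 14 (log2FC 0.81 ± 0.23, adjusted p = 0.0126; adjusted p = 0.0541 without C57 replicate 3) and at day 28 (log2FC 1.36 ± 0.24, adjusted p = 2.79e-04). Against ear Krt79 rose in E7 grafts at day 28 (log2FC 0.80 ± 0.24, adjusted p = 0.00938) and in C57 grafts at day 14 (log2FC 0.70 ± 0.24, adjusted p = 0.0187). The C57 call was lost without ear library C57_8wks_285 or C57_8wks_287 or graft replicate 1 or 2 (adjusted p = 0.0553 to 0.109), and with no low-count filter or these groups alone (adjusted p = 0.0532 and 0.136). Another 9 genes were listed for the upper follicle, not all of them particular to it, such as Krt75, a keratin of the companion layer. Of these 5 rose and 1 fell in E7 ear, 2 rose at day 14 and 7 at day 28. The shares of all genes called were 65.3%, 30.2% and 35.4%. At day 28 Klk6, a skin protease, had the smallest adjusted p (log2FC 4.26 ± 0.15, adjusted p = 1.18e-10) and the stress keratin Krt17 rose too (log2FC 1.87 ± 0.32, adjusted p = 5.43e-04). Against E7 grafts at day 14, where 15.1% of all genes rose, 4 of the 9 rose in CD1dKOxE7 grafts, among them Krt17 (log2FC 1.22 ± 0.31, adjusted p = 0.00877).

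Other gene lists moved in these comparisons too. All 18 proliferation genes rose in E7 skin in ear and at both graft days. Of 12 basal keratinocyte genes, 2 rose and 7 fell in E7 ear, and 1 rose and 2 fell at each graft day. Of 14 sebaceous gland genes, 5 rose and 2 fell in E7 ear, 1 rose at day 14 and 9 rose at day 28. The 19 other BMP pathway genes split, with 5 rising and 10 falling in E7 ear, 1 and 3 at day 14, and 3 and 4 at day 28. Of the inner root sheath genes 6 of 7 tested rose in E7 ear, from low levels, and of the other hair matrix and shaft transcription factors 10 rose and 2 fell of 12. In E7 grafts 2 of those 13 factors rose at day 14 and 5 at day 28.

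The CD1d alleles were examined by setting CD1dKOxE7 against E7 grafts. The share of E7 transgene counts was also lower in every CD1dKOxE7 library than in every E7 library at day 14, while the shares overlapped at day 28. At day 14 Krt79 was the 1 call of 10, beside 29.8% of all genes called (15.1% higher, 14.8% lower). Without E7 replicate 2 there were 2 calls, both lower (Foxn1, log2 fold change -0.76, adjusted p = 0.0112, and Msx2, log2 fold change -0.95, adjusted p = 0.0477), and Krt79 was lost. Without CD1dKOxE7 replicate 1 Foxn1 was called lower (adjusted p = 0.00539) beside Krt79. In the fit of all graft libraries the other 9 genes had log2 fold changes between -0.55 (Msx2) and 0.48 (Shh). At day 28 edgeR called none of the 10, none at an unadjusted p below 0.05 and DESeq2 called none, beside 0.21% of all genes (0.0741% higher, 0.136% lower). That share moved with single libraries and with the test, with 34 genes called in all, 304 without CD1dKOxE7 replicate 3, 4 without E7 replicate 1 and 244 with DESeq2, while the members called stayed at 0 in each of these. The log2 fold changes lay between -0.28 (Lgr5) and 1.29 (Shh), and libraries overlapped for all 10. The largest, Shh (log2FC 1.29 ± 0.83, adjusted p = 0.548), had CD1dKOxE7 replicate 3 at 5.36 times the mean of the other CD1dKOxE7 libraries. Against C57, CD1dKOxE7 grafts gave 7 calls of 10 at day 14 (Krt79 higher; Wnt10b, Fgf5, Msx2, Foxn1, Hoxc13 and Cd34 lower), beside 39.2% of all genes (19.1% higher, 20.1% lower). They gave 5 at day 28 (Krt79 higher; Wnt10b, Fgf5, Lgr5 and Cd34 lower), beside 49.4% (26.8% higher, 22.6% lower). E7 and CD1dKOxE7 grafts were set against the same C57 libraries. Leaving out single libraries gave 2 to 6 calls at day 14 and 2 to 5 at day 28. The change of the CD1dKOxE7 difference between days called none of the 10 in edgeR or DESeq2 and none at an unadjusted p below 0.05, beside 12.8% of all genes (6.54% higher, 6.31% lower).

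The E7 effect was also compared between tissues and days. Between day 14 grafts and ear 1 of the 10 was called (Foxn1), beside 12.6% of all genes (4.02% higher, 8.61% lower). Between day 28 grafts and ear none was called by edgeR, 3 had an unadjusted p below 0.05 and DESeq2 called 1, beside 7.43% (2.29% higher, 5.13% lower). Between day 28 and day 14 grafts edgeR called none, 1 gene had an unadjusted p below 0.05 and DESeq2 called none, beside 0.167% (0.148% higher, 0.0185% lower). Over all genes these were 27 calls, 12 without C57 replicate 3 of day 28, 72 without E7 replicate 3 of day 14 and 152 with DESeq2. Lef1 passed in E7 against C57 grafts at day 14 and not at day 28. The difference between the days did not pass (difference in log2FC 0.71 ± 0.67, adjusted p = 0.791), and neither did that of Cd34 (difference in log2FC 0.29 ± 0.29, adjusted p = 0.817).

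Set per kilobase of merged exons, the 10 genes spanned a wide range of levels. Krt79 had the highest group mean in all 8 groups, from 86.8 CPM per kb in C57 ear to 261 CPM per kb in CD1dKOxE7 grafts at day 28, and Cd34 came next in all 8. In C57 grafts at day 14 Hoxc13 (26.2 CPM per kb) and Msx2 (18.1 CPM per kb) followed, with Foxn1 at 14.2, Lgr5 at 5.29, Wnt10b at 4.7, Shh at 2.53, Lef1 at 2.44 and Fgf5 at 1.53 CPM per kb. Ordered by mean CPM over the 8 groups, C57 grafts at day 14 came first for 8 of the 10 genes, and E7 ear came last for Lgr5, Wnt10b, Lef1, Fgf5 and Cd34. Neighbouring groups in these orders mostly overlapped. C57 grafts at day 14 stood clear of the group next in order for Wnt10b, Lef1, Hoxc13 and Fgf5, and E7 ear stood clear below for Lgr5, Wnt10b, Lef1 and Cd34. The share of all genes with such orders or gaps was not determined, so these are descriptions of the 10 genes only.

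Patterns over the 8 group means were compared after centring log2 CPM of each gene, as the mean absolute difference among 15159 genes. Within the 10, Hoxc13 and Fgf5 were closest (0.228 log2 units), followed by Lef1 and Hoxc13 (0.296) and Lgr5 and Wnt10b (0.296), while Shh and Cd34 were farthest apart (1.35). Among all genes the closest to Lgr5 was Ptprv (0.0787), to Shh Krt75, a keratin of the companion layer (0.213), and to Wnt10b Olfml2a (0.126), with the hedgehog factor Gli2 next (0.128). Cldn14 was closest to Hoxc13 (0.147) and among the closest to Lef1 (0.216), for which Fhod3 came first (0.203). Foxn1 was closest to Pip5k1b (0.12) and then to Sp6 (0.139) and Dlx2 (0.146), both transcription factors. Msx2 had Slc9a2 (0.229), Fgf5 had Galnt14 (0.149), Cd34 had Calml4 (0.0801) and Krt79 had Cyp8b1 (0.104) and Cst6, a protease inhibitor of the infundibulum (0.114). These likenesses are descriptions over 8 groups of 3 libraries and share the libraries and their depth.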

How the data were processed

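RNA of whole ear skin and of skin grafts was sequenced from 24 libraries in 8 groups of 3. Per the labels' protocols, the TruSeq RNA kit v2 was used on total RNA. The authors deposited whole-number counts per gene for each library, with no normalization. The submitters' processing notes name bcl2fastq 1.8.4 and Trimmomatic for ear, FastQC and Trimmomatic for grafts, and build mm10, while the aligner, the counter and its strand setting are not given in the sources used here. All 10 members were found by symbol among 27180 rows, and coordinates are GENCODE GRCm38.

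Counts were tested with edgeR 4.0.16 (R 4.3.3, limma 3.58.1): TMM scaling, filterByExpr with a count minimum of 10 and a total of 15, robust quasi-likelihood fits over all genes, and Benjamini-Hochberg adjustment over all genes tested at 0.05. Ear libraries were fitted alone for E7 against C57 ear, the 18 graft libraries together for comparisons between grafts, and ear and graft libraries together for comparisons across tissues. Fold changes are log2. The SE printed with edgeR values is the absolute log2 fold change divided by the square root of the test's F statistic. It is not a separate estimate and is unreliable for very small fold changes. The tests were tried on simulated data with known changes. Alternatives were RLE and upper quartile scaling, no filter or 1 CPM in 3 libraries, a log2 fold change of at least 1, DESeq2 1.42.0, other sets of libraries in the fit, a replicate block and leaving out each library. Replicate numbers did not pair grafts: of 45 correlations between same-numbered libraries 8 were over 0.1, with a range of -0.331 to 0.277, so that the block is an alternative only.

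The members and the 22 gene lists were chosen with earlier results of these data known. All 10 members are named in each comparison, and of each list at most the 3 genes with the smallest adjusted p. The 3 genes most like a member had the smallest mean absolute difference over 8 centred group means of log2 CPM, leaving out predicted and Riken names. Depth limits precision: 3 counts equal 0.217 to 0.458 CPM, and Shh and Fgf5 in ear lie at or under this floor.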

Additional observations from a re-analysis of the deposited data

Results flagged for a closer look

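Foxn1 stood out because its E7 effect differed between tissues by a test of the difference itself. The log2 fold change of E7 over C57 skin was lower in day 14 grafts than in ear by a difference of -1.06 (SE 0.29, adjusted p = 0.0198, edgeR's quasi-likelihood test). The call was lost without ear library C57_8wks_287 or E7_8wks_288, C57 replicate 1 or E7 replicate 2 of day 14 (adjusted p = 0.0567 to 0.0691, the log2 difference staying below 0). In the same comparison 12.6% of all genes were called, so that 1 of the 10 genes is no more than the background. Foxn1 averaged 31.1 CPM in E7 and 17.2 CPM in C57 ear, and 39.9 CPM in E7 and 45.8 CPM in C57 grafts at day 14 (n = 3 each). By their names the ear and graft libraries come from separate flow cells, so that tissue and flow cell cannot be told apart.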

How the results depend on the processing

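Of 68 member values that passed, tried under 883 alternatives, 769 stayed past the threshold, 114 did not and 0 changed direction. Under all of these 39 values held, and 29 were lost under some, 26 of them on leaving out a library. The limit of a log2 fold change of at least 1 was not among these alternatives and was applied only to the numbers of members called. Numbers of members called follow, with the value reported first. E7 against C57 ear gave 6, and 3 at a log2 fold change of at least 1. E7 against C57 grafts at day 14 gave 2, and 1 at that fold, 1 with no low-count filter, 1 with the replicate block, 5 in a fit of all 24 libraries and 1 to 3 leaving out a library. At day 28 they gave 2, and 1 at that fold, 4 with all 24 libraries, 4 with only the groups compared and 1 to 3 leaving out a library. CD1dKOxE7 against E7 grafts at day 14 gave 1, and 0 at that fold and 1 to 2 leaving out a library. CD1dKOxE7 against C57 grafts gave 7 at day 14, and 4 at that fold and 2 to 6 leaving out a library. At day 28 they gave 5, and 3 at that fold, 3 with no filter, 3 with the replicate block, 3 with only the groups compared and 2 to 5 leaving out a library. Day 28 against day 14 gave 5 in E7 grafts, and 3 with only the groups compared and 2 to 6 leaving out a library. It gave 4 in CD1dKOxE7 grafts, and 2 at that fold, 7 with all 24 libraries, 0 with only the groups compared and 1 to 7 leaving out a library. With only those groups 1308 of all 15447 genes were called, against 3660 of 16189 in the main fit. E7 grafts at day 28 against ear gave 7, and 4 at that fold. The E7 effect in day 14 grafts minus ear gave 1, and 3 with only the groups compared and 0 to 1 leaving out a library. In day 28 grafts minus ear it gave 0, and 1 with DESeq2 and 2 with only the groups compared. Some values that missed the threshold passed under alternatives: Wnt10b in E7 against C57 grafts at day 28 (adjusted p = 0.0211 to 0.0472 in those), Cd34 at day 28 against day 14 in C57 grafts (0.00913 to 0.0464), Hoxc13 in E7 grafts at day 28 against ear (0.00109 to 0.0498), Lef1 at day 28 against day 14 in E7 grafts (0.00747 without E7 replicate 2 of day 14) and Krt79 in E7 against C57 ear (6.7e-04 without C57_8wks_286). The cause of these changes was not tested, beyond the stricter fold and the fewer libraries themselves. Upper quartile scaling moved the median log2 fold change of all genes in ear to -0.118, against 0.00245 with TMM. Ear and graft libraries, and CD1dKOxE7 and other grafts, differ in flow cell or lane, and 3 libraries a group leave low genes such as Shh and Fgf5 with wide errors.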
